A study of Mus musculus with 9 samples.

Results

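The 34 genes described here are widely used marks of macrophages and monocytes and of the leukocytes around them. They were chosen as a list of gene symbols, each matched to its Entrez row in a matrix of normalized counts, and all 34 were found among its 27179 gene IDs. The matrix covers sorted Lin-Lepr-tdTomato+ cells of mouse peri-implant fibrous tissue, the soft tissue that forms around an implant, taken 2 weeks after surgery in which a tibia was implanted. The 5 conditional knockout (cKO) libraries came from Lepr-CreERT;Tdtomato;Grem1fl/fl mice and the 4 control libraries from Lepr-CreERT;Tdtomato littermates, so all 9 carry the tamoxifen-inducible Cre driven by Lepr and the tdTomato reporter. Mice of both genotypes received tamoxifen and an implant. Grem1 encodes a secreted antagonist of bone morphogenetic proteins, and its loss is limited to cells in which this Cre was active. The sources used here give neither the antibodies behind "Lin" nor ages or strain. Whether the libraries of a group came from separate mice is not said in the labels, so p-values cover the spread among libraries only, which may in part be technical.

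Macrophages are phagocytes that arise from circulating monocytes or persist from embryonic precursors. They depend on the transcription factor PU.1, encoded by Spi1, and on colony-stimulating factor 1 acting through the receptor Csf1r, and they take up debris through scavenger, lectin, complement and Fc receptors. Around implants they are known for the foreign body response. Many of the 34 genes, among them Lyz2, Cybb, Tyrobp, Fcer1g and Ptprc, are also used by neutrophils or other leukocytes, and a sort for lineage-negative stromal cells is commonly set to remove all of these cells.

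Recovered read totals were 76.3 to 87.2 M in cKO replicates 1 to 4, 43.5 M in cKO replicate 5 and 44.8 to 53.4 M in the controls. Grem1 averaged 89.6 ± 38.2 normalized counts in cKO libraries and 572 ± 171 in controls (SD, n = 5 and 4; log2 fold change -2.72, limma adjusted p = 0.00781), with every cKO library below every control. Stromal genes, a list of 9 that includes Col1a1, Cxcl12 and Lepr, summed to 2481120.0 to 8127660.0 normalized counts in cKO libraries and 3663210.0 to 4890430.0 in controls. These sums were far above those of the 34 genes given below, but most of each was Col1a1 and Col1a2. Lepr alone had 1347 to 15785 normalized counts in cKO libraries and 935 to 40594 in controls. In control 4, Lepr (935) and Cxcl12 (18900) lay below the 41688 of the 34 genes. Both also lay below the sum of the 34 genes in control 2 and in cKO replicates 2 and 5. Cxcl12 had 55047 normalized counts there against 88132, 64954 against 177868 and 23905 against 27239. In the other libraries Cxcl12 lay above that sum. Xist, the female-specific transcript, had 2206 normalized counts in cKO replicate 2 and 0 in the other cKO libraries, and 870.1 and 2192 in control replicates 1 and 3 against 0 in controls 2 and 4. Depth and Xist were therefore not balanced between the genotypes, and libraries that stand apart are named beside the results they touch.

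Promoter sequences are shown for genes whose levels carry the results: Mrc1 and Trem2, below every control in every cKO library, C1qb and C1qc, complement genes read almost only in cKO replicate 2 and the controls, and Lyz2, the most abundant of the 34. Each run is the 250 bases before a RefSeq transcription start, 5′ to 3′, from the RefSeq promoter table of build GRCm38.p6. The counts themselves were made on mm39, so these coordinates belong to the sequences alone. Capitals mark GAGGAA or its reverse complement TTCCTC, the core of the site that PU.1 is known to bind, searched on both strands.
Mrc1: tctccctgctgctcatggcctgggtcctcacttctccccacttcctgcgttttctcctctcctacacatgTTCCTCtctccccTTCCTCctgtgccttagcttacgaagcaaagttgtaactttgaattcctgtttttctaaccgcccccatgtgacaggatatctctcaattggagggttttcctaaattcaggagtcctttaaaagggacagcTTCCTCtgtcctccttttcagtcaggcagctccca
Trem2: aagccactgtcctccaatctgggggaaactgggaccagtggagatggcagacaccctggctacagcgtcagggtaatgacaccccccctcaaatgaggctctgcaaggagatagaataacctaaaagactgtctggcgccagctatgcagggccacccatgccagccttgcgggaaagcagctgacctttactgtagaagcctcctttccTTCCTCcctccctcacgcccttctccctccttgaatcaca
C1qb: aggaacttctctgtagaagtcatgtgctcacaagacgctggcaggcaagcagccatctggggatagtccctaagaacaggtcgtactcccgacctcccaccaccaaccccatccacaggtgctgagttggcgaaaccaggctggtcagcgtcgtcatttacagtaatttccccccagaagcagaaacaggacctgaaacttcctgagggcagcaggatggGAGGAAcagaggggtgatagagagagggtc
C1qc: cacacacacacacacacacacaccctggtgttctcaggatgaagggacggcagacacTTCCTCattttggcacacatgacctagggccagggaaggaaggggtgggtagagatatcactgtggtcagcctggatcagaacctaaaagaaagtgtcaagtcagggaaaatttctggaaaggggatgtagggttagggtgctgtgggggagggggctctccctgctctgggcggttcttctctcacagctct
Lyz2: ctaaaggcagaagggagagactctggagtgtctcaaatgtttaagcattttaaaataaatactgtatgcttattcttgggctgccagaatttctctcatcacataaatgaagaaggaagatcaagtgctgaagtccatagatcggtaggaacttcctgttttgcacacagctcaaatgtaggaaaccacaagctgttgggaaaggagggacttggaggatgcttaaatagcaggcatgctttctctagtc
The Mrc1 window lies at chr2:14229164-14229413 on the plus strand and Trem2's at chr17:48346151-48346400 on the plus strand. C1qb's lies at chr4:136886201-136886450 and C1qc's at chr4:136892915-136893164, both on the minus strand, and Lyz2's at chr10:117282273-117282522 on the minus strand. The Mrc1 window held 3 matches, those of Trem2, C1qb and C1qc 1 each, and that of Lyz2 held 0, which says only that these letters are not in its window. The table had a promoter for 21 of the 34 genes, 24 promoters in all. Of these, 13 (54.2%) held a match, in 12 genes, against 7639 of 32851 promoters of the same length in the whole table (23.3%). The longer GAGGAAGT, which contains the shorter motif, was found in 1 of the 24, that of C1qc, and in 2.44% of all promoters. A match is a description of the letters and not a site of binding.

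The Ms4a6 genes are neighbouring paralogues on chromosome 19, and the windows of Ms4a6b (chr19:11518309-11518558, plus strand) and Ms4a6c (chr19:11469118-11469367, plus strand) are printed to show how alike such copies can be. Capitals here mark their longest identical run, of 48 bases.
Ms4a6b: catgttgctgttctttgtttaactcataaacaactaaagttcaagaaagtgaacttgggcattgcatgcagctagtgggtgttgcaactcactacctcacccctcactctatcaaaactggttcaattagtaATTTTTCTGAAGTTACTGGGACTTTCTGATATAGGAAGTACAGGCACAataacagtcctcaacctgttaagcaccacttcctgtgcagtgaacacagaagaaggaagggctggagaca
Ms4a6c: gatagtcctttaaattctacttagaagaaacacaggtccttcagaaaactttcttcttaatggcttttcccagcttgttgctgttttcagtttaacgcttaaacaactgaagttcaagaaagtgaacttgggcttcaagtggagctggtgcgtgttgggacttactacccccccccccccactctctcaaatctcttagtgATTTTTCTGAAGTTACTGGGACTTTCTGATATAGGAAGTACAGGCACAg
These windows lie before the transcription start and do not show how alike the transcripts are, which was not compared. The sources used here do not say how reads matching several genes were counted. Counts of the Ms4a6 genes are therefore uncertain to an unknown extent. The promoter of Ms4a6d was not analysed here.

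As a group the 34 genes were low in most cKO libraries, high in 1 of them, and intermediate in the controls. Their normalized counts summed to 13552, 177868, 8187, 16590.3 and 27239 in cKO replicates 1 to 5, against 50268, 88132, 71730.3 and 41688 in control replicates 1 to 4. Replicate 2 thus exceeded every control and the other 4 cKO libraries lay below every control. These sums were 0.0241%, 0.303%, 0.0144%, 0.0286% and 0.0473% of all normalized counts in the cKO libraries and 0.0831%, 0.136%, 0.125% and 0.066% in the controls. In RNA from sorted bulk cells, fewer macrophages and less of these RNAs per macrophage cannot be told apart. Lyz2 alone made up 51.2% to 57.4% of the sum in the cKO libraries and 45.2% to 64% in the controls. Without it the sums were 6609.8, 77739, 3484, 7140.2 and 13016 in the cKO libraries and 27527, 31704, 35102 and 18003 in the controls, with the same order of groups. The number of the 34 genes without a single read was 9, 3, 11, 8 and 9 in cKO replicates 1 to 5, and 1, 0, 2 and 1 in the controls.

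**Figure D1:**
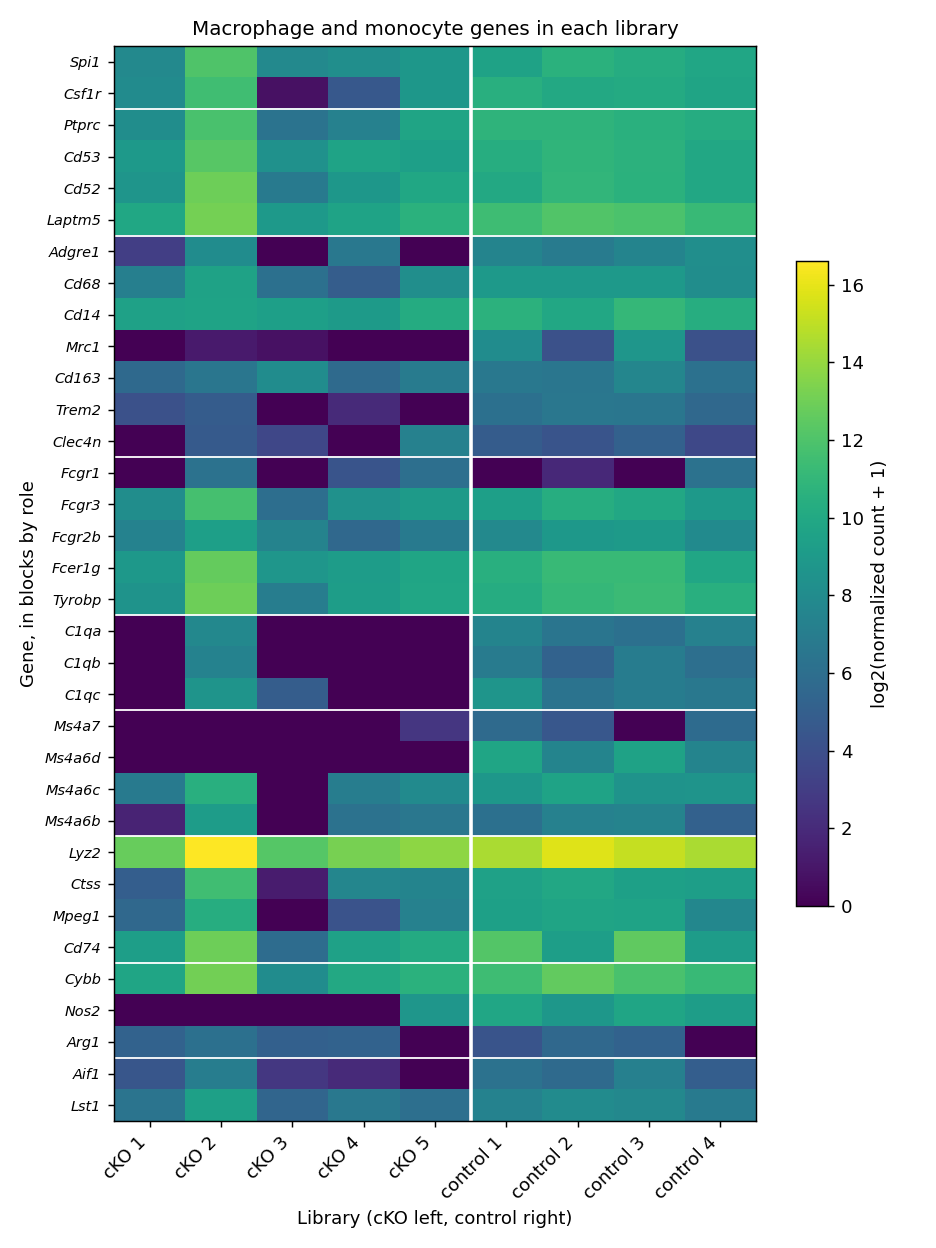
Level of each of the 34 genes (down the page, by role) in each library (across, cKO replicates 1 to 5 left of control replicates 1 to 4), as log2 of the normalized count plus 1. cKO replicate 2 stands out as the high column among the cKO libraries, and Ms4a6d is at 0 in all 5 of them.

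The test was limma with a mean trend on log2(normalized count + 1), over the 15832 genes with at least 10 normalized counts in at least 4 libraries, and a gene was called at a Benjamini-Hochberg adjusted p under 0.05. It included 33 of the 34 genes; Ms4a7 did not pass the filter. Of the 33, 3 were called lower in cKO libraries (Ms4a6d, Mrc1 and Nos2), where 2.87% of all genes tested were, and 0 were called higher, where 4.61% of all genes were. At an unadjusted p under 0.05, 9 were lower, against 12.2% of all genes. With edgeR on recovered reads 0 were called higher too, where 3.26% of all genes were. DESeq2 called 0 higher among the 22 for which it gave an adjusted p, where 10.2% of all genes were. The sign of the log2 fold change was negative for 31 of the 33, against 50.3% of all genes tested, and positive for Fcgr1 and Arg1. The median log2 fold change was -1.49, also with Ms4a6d set at its bound, against -0.0039 over all genes tested. This scale compares geometric means, on which replicate 2 counts as 1 library of 5; with edgeR, which compares arithmetic means, 23 of the 33 were negative and their median was -0.53.

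**Figure D2:**
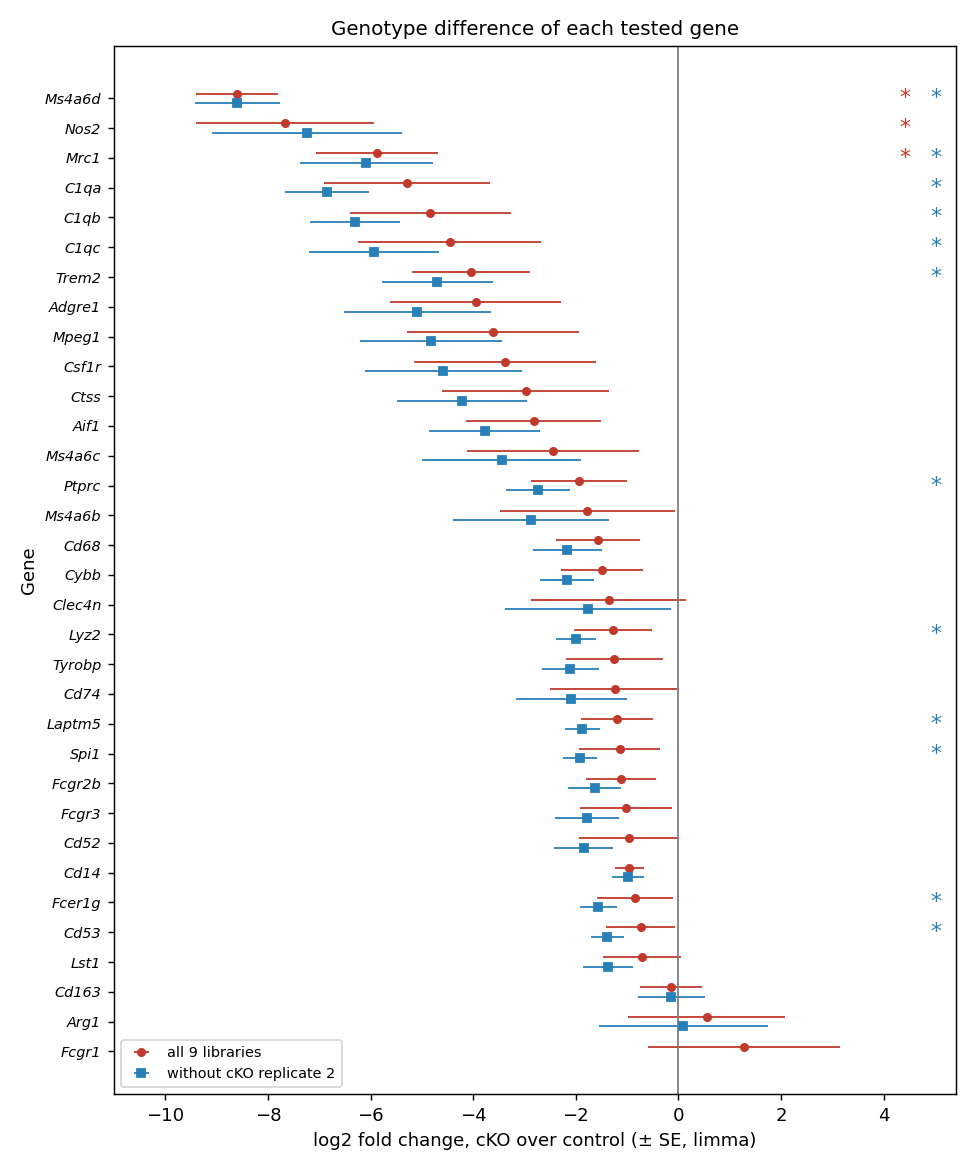
Log2 fold change of cKO over control for the 33 tested genes, with its standard error, from all 9 libraries and from the 8 left without cKO replicate 2 (32 genes tested there). Asterisks mark genes called at an adjusted p under 0.05 in each fit; most points lie further left of 0 (lower in cKO libraries) without replicate 2, and 12 rather than 3 genes carry an asterisk.

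Spi1 encodes PU.1, the transcription factor that sets up the myeloid lineage. It had 226, 4249, 224, 294 and 451 normalized counts in cKO replicates 1 to 5, against 759, 1596, 1261 and 904 in control replicates 1 to 4. Replicate 2 was 3.76 times the control mean, while the other 4 cKO libraries lay below every control. Over all 9 libraries the difference did not pass the test (log2 fold change -1.14, SE 0.79, limma adjusted p = 0.385).

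Csf1r, the receptor for colony-stimulating factor 1 and interleukin 34, had 257, 2922, 0.678, 22.4 and 436 normalized counts in cKO replicates 1 to 5, against 1459, 1030.5, 1149.9 and 847 in the controls. Replicate 3 held a single read of Csf1r, and replicate 2 the highest level of all 9 libraries. The log2 fold change was -3.39 (SE 1.77, limma adjusted p = 0.25). The ligands of this receptor, tested in a separate list, were abundant in every library: Csf1 had 7983 to 16979 normalized counts in cKO libraries and 5676 to 11982 in controls, and Il34 had 1646 to 2716 and 1393 to 2364, with limma adjusted p of 0.308 and 0.388.

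Ptprc, the pan-leukocyte phosphatase CD45, had 277, 3674, 80, 158 and 846 normalized counts in cKO replicates 1 to 5, against 1798, 1766, 1492 and 1245 in the controls. The control libraries lay within a narrow band and the cKO libraries on both sides of it (log2 fold change -1.94, SE 0.93, limma adjusted p = 0.212). The tetraspanin Cd53, the small surface glycoprotein Cd52 and the lysosomal membrane protein Laptm5 had the same order. Replicate 2 stood at 5124, 7762 and 9228 normalized counts for Cd53, Cd52 and Laptm5, above the highest controls of 1888, 1952 and 4399. The other 4 cKO libraries ranged from 339 to 796 for Cd53, from 114 to 957 for Cd52 and from 509.9 to 1552 for Laptm5, all below the lowest control. Their limma adjusted p values were 0.515, 0.554 and 0.307.

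Among the macrophage surface genes, Mrc1, the mannose receptor CD206 of tissue macrophages, was almost unread in cKO libraries. It had 0, 1.35, 0.678, 0 and 0 normalized counts in cKO replicates 1 to 5, against 270.2, 16.6, 416 and 16.8 in control replicates 1 to 4. The groups did not overlap, and controls 1 and 3 were far above controls 2 and 4. The 5 cKO libraries held 3 reads together, although 4 of them were the most deeply sequenced. The control mean of 179.8 ± 197 (SD, n = 4) was 444 times the cKO mean of 0.405 ± 0.603 (SD, n = 5), with a 95% Poisson counting interval of 152 to 2154. Without controls 1 and 3 the ratio was 41.2, with an interval of 14.1 to 199.6. Mrc1 was called lower (log2 fold change -5.87, SE 1.2, limma adjusted p = 0.0211); edgeR called it too (adjusted p = 0.0209). The limma adjusted p was 0.0555 without cKO replicate 1 and 0.0561 without replicate 4, above 0.05 in both cases. With the same genes tested it was 0.0693 without control 1 and 0.0661 without control 3.

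Trem2, a lipid-sensing receptor of tissue macrophages and osteoclast precursors, had 16.2, 26.9, 0, 2.89 and 0 normalized counts in cKO replicates 1 to 5, against 70.3, 93.8, 92.6 and 47.5 in the controls. Every cKO library lay below every control, replicate 2 included, though with few reads in any of them. The log2 fold change of -4.04 (SE 1.15) missed the threshold with all 9 libraries (limma adjusted p = 0.0593) and passed it without cKO replicate 2 (0.0473). In all, 4 of the 33 tested genes (Mrc1, Trem2, Ms4a6d and Nos2) had every cKO library below every control, where 4.6% of all genes tested had this order, and 0 had every cKO library above every control, where 6.82% did.

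Cd14, the lipopolysaccharide co-receptor, had 713, 778, 650.2, 528 and 1166 normalized counts in cKO replicates 1 to 5, against 1599.7, 982, 2116 and 1294 in the controls. It was 1 of 6 genes in which cKO replicate 2 was not the highest cKO library, and the groups overlapped only through replicate 5, which lay above control 2. The difference (log2 fold change -0.96, SE 0.28) had a limma adjusted p of 0.064, and DESeq2 on the recovered reads called it lower (adjusted p = 0.0178).

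Adgre1, which encodes the F4/80 antigen of mouse macrophages, had 7.36, 273, 0, 101 and 0 normalized counts in cKO replicates 1 to 5, against 181, 119, 177 and 293 in the controls. Replicate 2 lay within the control range and the other cKO libraries below it (log2 fold change -3.95, SE 1.66, limma adjusted p = 0.159). Cd68, a lysosomal glycoprotein of phagocytes, had 28.9 to 288 normalized counts in cKO replicates 1, 3, 4 and 5 and 757 in replicate 2, against 282 to 511 in controls (limma adjusted p = 0.249). Cd163, the haemoglobin scavenger receptor, showed no such order: it had 49.3 to 269.9 normalized counts in cKO libraries and 71.3 to 195 in controls (limma adjusted p = 0.896). Replicate 3, lowest or tied for lowest for most of the 34 genes, was the highest library for Cd163. Clec4n, the C-type lectin Dectin-2, had 0 to 156 normalized counts in cKO libraries, with replicate 5 the highest, and 11.2 to 34.5 in controls (limma adjusted p = 0.592).

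**Figure D3:**
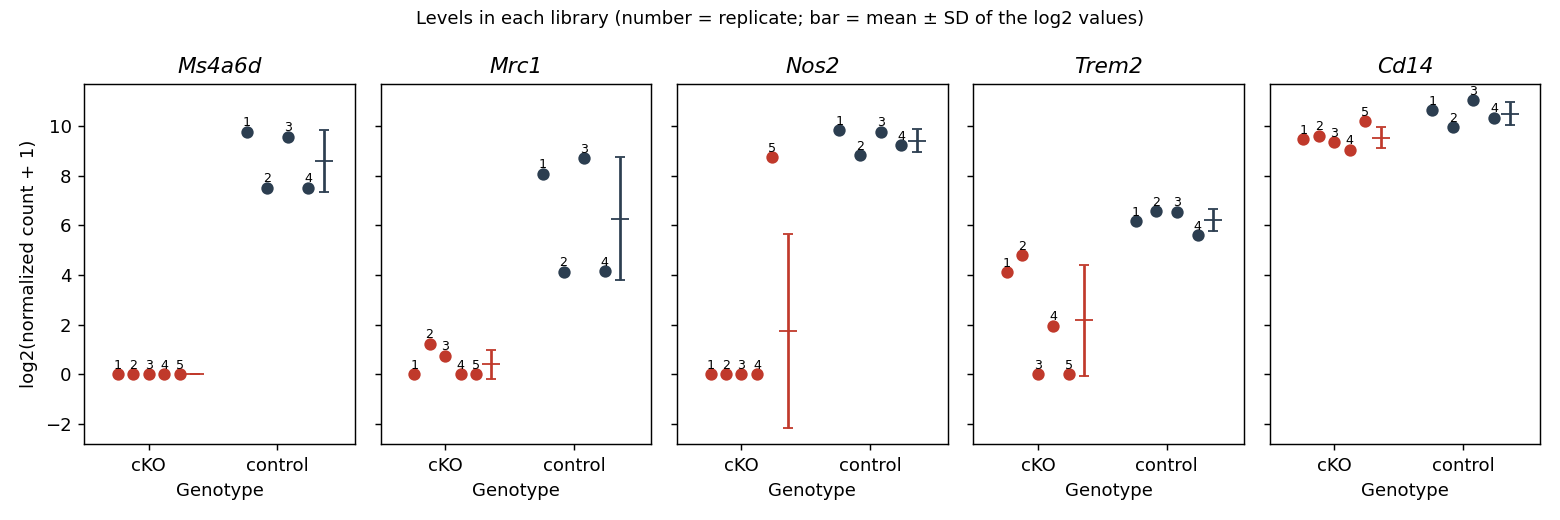
Levels of Ms4a6d, Mrc1, Nos2, Trem2 and Cd14 in each library as log2 of the normalized count plus 1, cKO left of control in each panel; points are numbered by replicate, and bars give the mean and SD of the log2 values. The cKO points of Ms4a6d all lie at 0, and the only cKO point of Nos2 above 0 is replicate 5.

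The Fc receptors bind antibody, and Fcer1g and Tyrobp (DAP12) are the adaptors through which many myeloid receptors signal. Tyrobp had 378, 7935, 132, 599 and 929.6 normalized counts in cKO replicates 1 to 5, against 1257, 2120.2, 2552 and 1406 in the controls. Fcer1g had 453, 6607, 419, 568 and 863 in cKO replicates 1 to 5, against 1399.7, 2341, 2379 and 921 in the controls. For both adaptors replicate 2 was the highest of the 9 libraries and the other 4 cKO libraries lay below every control. The group means differed little as a result, 1782 ± 2703 in cKO libraries and 1760.2 ± 720.0 in controls for Fcer1g (SD, n = 5 and 4; limma adjusted p = 0.495), and Tyrobp had a limma adjusted p of 0.427. The activating receptor Fcgr3 and the inhibitory receptor Fcgr2b were likewise highest in cKO replicate 2, at 3323 and 660.2 normalized counts, and had limma adjusted p of 0.5 and 0.314. Fcgr1, the high-affinity receptor CD64, was near the detection limit: it had 0 to 74 normalized counts in cKO libraries and 0 to 75.5 in controls, and was unread in 2 libraries of each group (limma adjusted p = 0.693).

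C1qa, C1qb and C1qc encode the chains of the first complement component, made largely by tissue macrophages. C1qa had 0, 217, 0, 0 and 0 normalized counts in cKO replicates 1 to 5, against 178, 85.5, 68.9 and 159 in control replicates 1 to 4. C1qb had 0, 163, 0, 0 and 0 in the cKO replicates, against 122, 35.9, 126 and 67.1 in the controls. C1qc had 0, 379.6, 28.5, 0 and 0 in the cKO replicates, against 411, 80, 123 and 97.8 in the controls. Outside replicate 2 the only reads of the 3 chains in cKO libraries were those of C1qc in replicate 3, while every control held all 3. With all 9 libraries no chain passed; the log2 fold changes were -5.29, -4.83 and -4.46, with adjusted p of 0.0723, 0.0846 and 0.141 from limma. Without replicate 2 all 3 were called lower (limma adjusted p = 0.00764, 0.0112 and 0.0398).

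Of the MS4A family of tetraspanning membrane proteins, Ms4a6d had 0 normalized counts in all 5 cKO libraries, against 873, 182, 762 and 182 in control replicates 1 to 4. Controls 1 and 3 were again the higher ones, but even controls 2 and 4 held more than 100 reads each. Set against a floor of 3 reads in each cKO library, its level was at least 202-fold lower in cKO libraries, and at least 73.4-fold lower without controls 1 and 3. The limma adjusted p was 0.00083, and with the same genes tested it stayed between 0.000323 and 0.00623 when any 1 library was left out. Unlike most of the list, Ms4a6d had no read in cKO replicate 2 either. At like depth, with the 43.5 M reads of cKO replicate 5 against the controls, the limma adjusted p was 0.094.

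The related Ms4a6c had 110.4, 1425, 0, 129 and 249.9 normalized counts in cKO replicates 1 to 5, against 451, 788, 365 and 389.9 in the controls. Ms4a6b had 2.21, 567, 0, 77.3 and 93.9 in the cKO replicates, against 70.3, 156, 171 and 34.9 in the controls. For both paralogues replicate 2 was the highest library, and neither passed the test (limma adjusted p = 0.381 and 0.536). Ms4a7 had 5.29 normalized counts in cKO replicate 5 and 0 in the other cKO libraries, against 52.7, 22.1, 0 and 55.9 in the controls, and was not tested.

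Lyz2, lysozyme M of the granules and lysosomes of macrophages and neutrophils, was the most abundant of the 34 genes per kilobase of exon. Its normalized counts were 6942, 100129, 4703, 9450.1 and 14223 in cKO replicates 1 to 5, against 22740.3, 56428, 36628 and 23685 in the controls. Replicate 2 was 2.87 times the control mean, and the other 4 cKO libraries were all below the lowest control (log2 fold change -1.27, SE 0.76, limma adjusted p = 0.314). Ctss, the cysteine protease cathepsin S of antigen-presenting cells, had 30.9, 2947, 1.36, 199 and 179.8 normalized counts in cKO replicates 1 to 5, against 729.6, 1007, 683 and 640.0 in the controls. Mpeg1, the pore-forming perforin-2, had 48.6, 1315, 0, 18.1 and 153 in the cKO replicates, against 694, 830.4, 811 and 201 in the controls. Both had the order of Lyz2 and did not pass (limma adjusted p = 0.267 and 0.2). Cd74, the invariant chain of MHC class II, had 622, 7825, 58.3, 726 and 1159.7 normalized counts in cKO replicates 1 to 5, against 4502, 635, 6109 and 579.9 in the controls (limma adjusted p = 0.556). Controls 1 and 3 were high for it, and controls 2 and 4 lay within the range of the cKO libraries other than replicate 2.

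Nos2, the inducible nitric oxide synthase of activated macrophages, had 0, 0, 0, 0 and 426 normalized counts in cKO replicates 1 to 5, against 909, 452, 877 and 598 in the controls. The groups did not overlap, but replicate 5 came close to control 2, and cKO replicate 2 had no read. The ratio of the means was 8.33, while the log2 fold change, which follows the 4 libraries at 0, was -7.67 (SE 1.73, limma adjusted p = 0.0301). This call was lost without any 1 of the controls or of cKO replicates 1 to 4 (limma adjusted p 0.0612 to 0.0783). It was not made by edgeR (adjusted p = 0.383) or DESeq2 (0.54). At like depth, with cKO replicate 5 alone against the controls, the log2 fold change of Nos2 was -0.68. Arg1, the arginase that uses the same substrate, was low throughout, with 0 to 70 normalized counts in cKO libraries and 0 to 46.9 in controls (limma adjusted p = 0.846). Cybb, the membrane subunit of the phagocyte oxidase, had 878, 8495, 266, 1042 and 1555 normalized counts in cKO replicates 1 to 5, against 2802, 6387, 3692 and 2378 in the controls (limma adjusted p = 0.262). Nos2 was therefore at 0 in the cKO library in which Cybb was highest.

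Aif1, the actin-binding protein Iba1, had 20.6, 133, 5.42, 2.89 and 0 normalized counts in cKO replicates 1 to 5, against 75.7, 52.4, 146 and 30.7 in the controls (limma adjusted p = 0.199). Lst1, a myeloid membrane adaptor, had 42 to 99 in cKO replicates 1, 3, 4 and 5 and 689 in replicate 2, against 112 to 262 in the controls (limma adjusted p = 0.574).

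Across the roles 1 arrangement recurred. cKO replicate 2 was the highest of the 9 libraries for 22 of the 33 tested genes (66.7%), where it was for 14.4% of all genes tested, and the highest cKO library for 28 (84.8%, against 21% of all genes). The other 4 cKO libraries all lay below every control for 24 of the 33 (72.7%, against 6.23%), and cKO replicate 3 was lowest or tied for lowest in 24 (72.7%, against 17.6%). Controls 1 and 3 both lay above controls 2 and 4 for 12 genes (36.4%, against 23.6%), among them Csf1r, Cd14, Mrc1, Ms4a6d, Cd74 and Nos2. Control 2 was the highest control for another 13 (39.4%, against 24.9%), among them Spi1, Lyz2, Cybb, Ctss and Mpeg1. These orders were noticed in the data and are descriptions, with no test. The 3 genes called lower did not have the first of these orders: Ms4a6d and Nos2 had no read in replicate 2 and Mrc1 had 2.

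Leaving out 1 library at a time showed how far the count depended on replicate 2. Without it 12 of 32 tested genes were called lower and 0 higher (limma; 1.6% of all genes were called lower). The 12 were Ptprc, Spi1, Cd53, Laptm5, Lyz2, Fcer1g, Trem2, C1qa, C1qb, C1qc, Ms4a6d and Mrc1, with Nos2 no longer among them. Without replicate 2 Spi1 was 3.78-fold lower (SE 0.33 on the log2 scale, limma adjusted p = 0.0202), Lyz2 3.99-fold lower (0.0274) and Laptm5 3.66-fold lower (0.0234). Csf1r, at 24-fold lower on the log2 scale and 6.26-fold by the ratio of means, still did not pass (0.111), since its cKO values spanned 0.678 to 436. Without cKO replicate 5, 5 were lower, against 10.2% of all genes. Without replicates 1, 3 and 4 in turn the counts were 1, 2 and 1, against 0.863%, 1.28% and 0.766% of all genes. Leaving out control 1, 2, 3 or 4 gave 0 each time, against 0.781%, 0.832%, 1.18% and 0.839% of all genes. Ms4a6d and Mrc1, which reached 10 normalized counts in 4 libraries only, failed the filter there; with the same genes tested the counts were 1, 2, 1 and 2.

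Other settings gave other counts among the 34 genes, each read against its own background. edgeR called 2 lower (Ms4a6d and Mrc1), against 1.71% of all genes, and DESeq2 called 3 (Ms4a6d, Mrc1 and Cd14), against 6.35%. DESeq2 gave an adjusted p for 22 of the 34 genes only; Spi1, Csf1r, Lyz2 and Cybb were among those without one. Limma with library weights called 9, against 11.5% of all genes, and with a replicate block 4, against 7.62%. Without cKO replicates 2 and 5 together, a pair chosen from their levels in these data, 23 were lower, against 10.1% of all genes. Without controls 1 and 3 the count was 0, against 0.378%, and with libraries under 60 M reads alone, where replicate 5 is the only cKO library, it was 0, against 0.0139%.

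Per kilobase of merged GENCODE exon, where levels of different genes can be set side by side, Lyz2 averaged 20585 ± 31142 normalized counts in cKO libraries and 26497 ± 11935 in controls (SD, n = 5 and 4). Tyrobp was next in controls, at 2990 ± 4998 in cKO libraries and 2749 ± 914 in controls, followed by Fcer1g, Cd74 and Cd52. Other receptors were lower per kilobase, over a wide range: Adgre1 had 23.6 ± 36.5 in cKO libraries and 59.4 ± 22.6 in controls, and Mrc1 0.0635 ± 0.0946 and 28.2 ± 31. Csf1r had 126 ± 215 in cKO libraries and 194 ± 44.6 in controls, and Cd14 443 ± 139 and 865 ± 279. The pan-leukocyte gene Ptprc, at 55 ± 83 and 86 ± 14.2, lay below Csf1r and Cd14. The spread within groups leaves neighbours in this order undistinguished.

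Markers of other cell types were summed per library from lists that hold none of the 34 genes. The 14 neutrophil granule and receptor genes summed to 101617, 839257, 48307, 106181 and 110429 normalized counts in cKO replicates 1 to 5, against 149816, 612010.0, 254808 and 141811 in the controls. Replicate 2 was highest and replicate 3 lowest, as for the 34 genes, and control 2 was the highest control, as for Lyz2 and Spi1, whereas Mrc1, Ms4a6d and Cd74 were higher in controls 1 and 3. Limma, edgeR and DESeq2 called 0 of 14 in either direction, and 0 had an unadjusted p under 0.05. Per kilobase S100a8, a neutrophil and monocyte alarmin, averaged 95877 ± 148301 in cKO libraries and 87764 ± 59874 in controls, above Lyz2 in both groups. The part of neutrophils in the levels of shared genes was not tested.

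The 10 endothelial genes summed to 9235, 5045, 6707, 7857 and 5966 normalized counts in cKO replicates 1 to 5, against 147529, 6103, 182121 and 8858 in the controls. Controls 1 and 3, the 2 libraries high for Mrc1, Ms4a6d and Cd74, were the high ones, at more than 10 times the others. Flt1, a receptor for vascular endothelial growth factor, and Cldn5, a tight junction protein, were called lower in cKO libraries, 10.1-fold and 13.6-fold (limma adjusted p = 0.0468 and 0.0478; 2 of 10 genes). The count was 6 lower with edgeR, 8 with DESeq2 and 9 at an unadjusted p under 0.05, but 0 with limma without cKO replicate 2 (adjusted p = 0.079 for Flt1 and 0.0764 for Cldn5). Without 1 library at a time the limma adjusted p reached 0.115 for Flt1 and 0.119 for Cldn5, both without control 1, and with no filter on low values it was 0.0568 and 0.0615. In controls 2 and 4 Mrc1 had 16.6 and 16.8 normalized counts and Ms4a6d 182 and 182. Endothelial sums there lay within the cKO range, but single genes of the list differed, and much of the cKO sums was Tek. Tek had 1145 to 5191 normalized counts in cKO libraries and 320 and 609 in controls 2 and 4. It made up 5119 of the 9235 in cKO replicate 1 and 5191 of the 6707 in replicate 3. Flt1 (632 and 1211), Cldn5 (168 and 103), Vwf (1014 and 1509) and Tie1 (1240 and 623) were above every cKO library in these controls. For Pecam1, Cdh5, Kdr, Emcn and Egfl7, control 2 lay within the cKO range. The part of blood vessel cells in the levels of Mrc1 and Ms4a6d was not tested.

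Skeletal muscle genes moved with genotype in the other direction: 8 of 8 were called higher by limma and 7 each by edgeR and DESeq2, and they summed to 363544, 211308, 63659, 578272 and 75762 normalized counts in cKO replicates 1 to 5, against 1152, 1665, 1022 and 379 in the controls. Replicate 3, lowest or tied for lowest for most of the 34 genes, was also the lowest cKO library for muscle genes. Replicate 2, highest for most of the 34, was the third highest. The part of muscle RNA in the levels of the 34 genes was not tested.

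**Figure D4:**
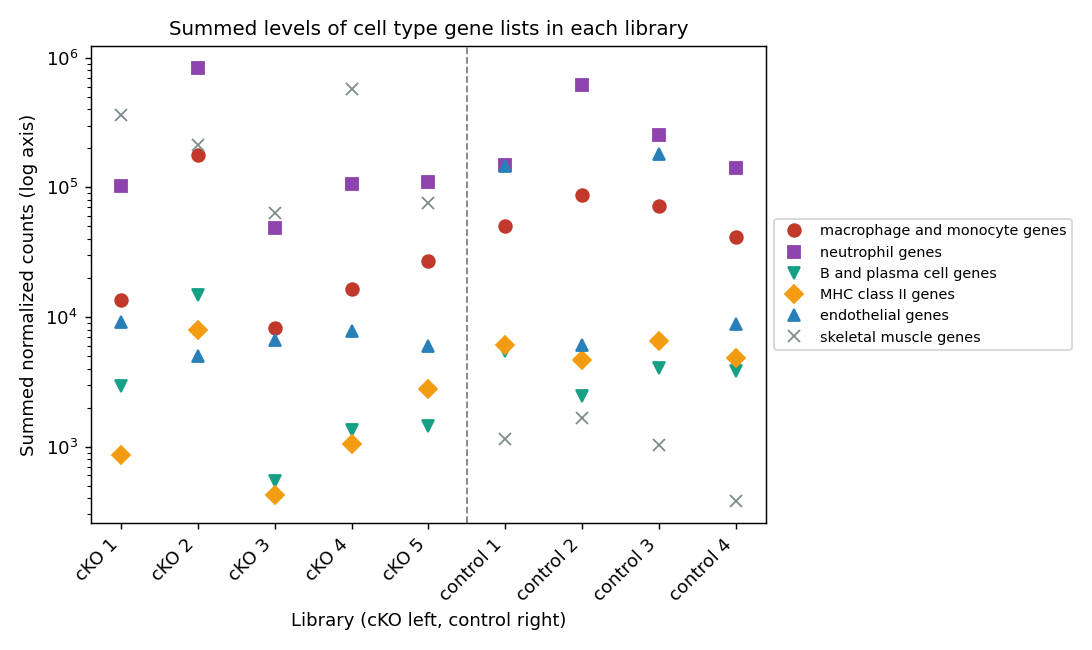
Summed normalized counts per library (log axis) for the 34 genes and for lists of neutrophil, B and plasma cell, MHC class II, endothelial and skeletal muscle genes, 1 symbol per list, with cKO replicates left of controls. cKO replicate 2 is the high cKO point for the 34 genes (177868) and the neutrophil genes (839257) but not for the endothelial genes (5045).

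Further genes of macrophage biology were taken from fixed lists. Of 17 tested growth factor, chemokine and cytokine genes 1 was higher and 1 lower, with a median log2 fold change of -1.32. Cd47, the "do not eat me" signal on most cells, averaged 27335 ± 2676 normalized counts in cKO libraries and 20085 ± 1661 in controls (SD, n = 5 and 4; 1.36-fold higher, limma adjusted p = 0.0472). Cx3cl1, the ligand that attracts Cx3cr1-bearing monocytes, averaged 2369 ± 1182 in cKO libraries and 5456 ± 890.5 in controls (2.49-fold lower, limma adjusted p = 0.0327). Neither was called by edgeR (adjusted p = 0.0674 for Cd47 and 0.058 for Cx3cl1) and both were by DESeq2 (0.00171 and 0.0044). With limma, leaving out any library but cKO replicate 5 ended both calls (adjusted p up to 0.12 and 0.0887), and the adjusted p of Cd47 was 0.0618 with no filter and 0.0502 with TMM scaling. Cx3cr1, the receptor of Cx3cl1, had 19.1, 458, 0, 0 and 45 normalized counts in cKO replicates 1 to 5, against 270.2, 246, 528 and 157 in the controls (limma adjusted p = 0.13). Replicate 2 lay within the control range for Cx3cr1 and the other 4 cKO libraries below it. Ccr2, the receptor of inflammatory monocytes, was highest of all 9 libraries in replicate 2, with 2392 in replicate 2 and 0 to 203 in the other cKO libraries, against 421 to 1297 in controls (limma adjusted p = 0.294).

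Of 15 tested surface and lectin genes 1 was higher and 0 lower: Axl, a receptor for apoptotic cells also made by stromal cells, was 2.17-fold higher (67938 ± 21398 normalized counts in cKO libraries, 30129 ± 4411 in controls; limma adjusted p = 0.0276). Folr2, the folate receptor of resident macrophages, had 32.4, 0, 84.1, 0 and 643 in cKO replicates 1 to 5, against 438, 1101, 1012 and 1147 in the controls (limma adjusted p = 0.0803). Like Ms4a6d, Folr2 was unread in replicate 2. Mgl2, of the same list, went the other way, with 80.7 to 750 normalized counts in cKO libraries and 0 to 95.2 in controls (log2 fold change 3.4, limma adjusted p = 0.123). Marco, Vsig4 and Timd4, further marks of resident macrophages, were at 0 in all 9 libraries. Of 12 transcription factors 2 were higher, Cebpb 1.92-fold (limma adjusted p = 0.0367) and Klf4 1.95-fold (0.0493), and 0 lower. Of 16 oxidase, signalling and lysosome genes 1 was higher, Gpnmb, a glycoprotein of lysosome-laden cells, 6.41-fold (0.0362), and 0 lower. DESeq2 called all 4 of these genes, and edgeR called Axl, Cebpb and Gpnmb but not Klf4 (adjusted p = 0.0607). The limma calls were mostly lost when 1 library was left out: of 9 such fits, Axl was called in 2, Cebpb in 1, Klf4 in 1 and Gpnmb in 3. Without cKO replicate 2 the limma adjusted p was 0.0673 for Cebpb and 0.0599 for Klf4, and Klf4 had 0.0605 with no filter and 0.0502 with TMM scaling. Klf4, the lowest of Cd47, Axl, Cebpb and Klf4, still had 4144 to 8899 normalized counts in cKO libraries and 2603 to 4456 in controls.

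The 6 MHC class II genes summed to 866, 7924, 422, 1048 and 2768 normalized counts in cKO replicates 1 to 5, against 6057, 4643, 6510.5 and 4811 in the controls. Replicate 2 was above the controls and the other 4 cKO libraries below them; limma, edgeR and DESeq2 called 0 of the 6, and 2 were lower at an unadjusted p under 0.05. Of 9 monocyte genes 0 were called by limma or edgeR and 1 lower by DESeq2, with 2 lower at an unadjusted p under 0.05. Of 8 tested osteoclast genes, cells of the same lineage, Calcr, the calcitonin receptor, was higher (2378 ± 1847 normalized counts in cKO libraries, 82.4 ± 163 in controls; limma adjusted p = 0.0213). Nfatc1, the regulator of osteoclast formation, was 1.78-fold lower (0.0445). Calcr was called by neither edgeR (adjusted p = 0.116) nor DESeq2 (0.0616), and Nfatc1 by DESeq2 (0.0122) but not edgeR (0.0691). With limma, Calcr was called in 3 of the 9 fits that left out 1 library and Nfatc1 in 1, that without cKO replicate 5; without cKO replicate 2 Nfatc1 had an adjusted p of 0.0695, and with no filter 0.0552.

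In the authors' deposited table all 34 genes were listed, 23 with an adjusted p and 11 without any p, among them Spi1, Csf1r and Lyz2. It had 3 of the 23 lower (Mrc1, Ms4a6d and Cd14) and 0 higher, where 6.63% of all genes with an adjusted p were lower. For Cd14 the authors' deposited table gave an adjusted p of 0.0155, and for Nos2 one of 0.539.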

How the data were processed

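RNA of sorted cells was sequenced in 9 libraries with paired reads of 150 bases per the labels' protocols, and titles gave group and replicate. The authors deposited normalized gene counts (a signal, in which each library is divided by its own size factor) and the results of their own test; per the file headers these are a mean signal, log2 fold changes, a score and p-values. The submitters' processing notes list STAR, featureCounts, DESeq2 and build mm39 and give no versions; how strand and multi-mapping reads were handled is not stated there.

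Values were whole multiples of a step per library (tolerance 0.01 read; 3 values were not; at least 99.99% were), which recovered whole reads, 43.5 to 87.2 M per library. They gave depth, floors (3 reads per library), 95% Poisson intervals and count tests; these cover counting error only. Symbols matched 25275 of 27179 IDs in a RefSeq gene table of GRCm38.p6, and exon lengths came from GENCODE vM21. The test was limma 3.58.1 in R 4.3.3 (trend, two-sided, genotype alone) on log2(normalized count + 1). The added 1 shrinks fold changes of low genes on this scale. Where some libraries were at or near 0, they could still far exceed the ratio of the means, as for Nos2 (203-fold against 8.33). Grem1 was also compared by an exact permutation test over 126 splits (p = 0.00794, the smallest possible). All 34 genes are named, and up to 3 called genes per direction in other lists. Genes of those lists that were not called, such as Folr2, Cx3cr1, Ccr2, Csf1 and S100a8, were named outside this rule. Members and lists were chosen with earlier results of these data known. Tests were tried on simulated data. Alternatives were other pseudocounts, filters and scalings, count tests of those reads (DESeq2 1.42.0, edgeR 4.0.16), library weights, robust eBayes, a replicate block and left-out libraries. Keeping the same genes when a library is left out was chosen after seeing the data, as was a list of cartilage genes.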

Additional observations from a re-analysis of the deposited data

Results flagged for a closer look

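In groups of 4 or 5 libraries, values were compared as log2(normalized count + 1). On that scale a library was singled out where its gap to the nearest other, divided by the group's range, passed Dixon's 95% critical value. Of 70 groups, 9 were. About 1 in 20 (3.5) is the number for independent groups. These groups share the same 9 libraries, so the 2 numbers cannot be set against each other. Where the other 4 cKO libraries were at 0, as for C1qa, C1qb, Nos2 and Ms4a7, any count above 0 gives a share of 1. Ms4a6d, at 0 in every cKO library, had no range there and could not be singled out. In 4 the library was cKO replicate 2, the highest of its group, with a share of the range of 0.762 for Spi1, 0.738 for Fcer1g, 1 for C1qa and 1 for C1qb. cKO replicate 5 was the highest for Nos2 (1) and Ms4a7 (1), with 426 and 5.29 normalized counts where the other 4 cKO libraries had 0, and the lowest for Arg1 (0.824), at 0. Control replicate 4 was the lowest control for Cd68 (0.91) and Mpeg1 (0.874), at 282 and 201 normalized counts.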

How the results depend on the processing

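Of the 32 alternatives, 23 were planned and 9 added after seeing the data. Over all genes 1184 were called; edgeR called 786, DESeq2 2546, library weights 4056, and leaving out 1 library 373 to 3562. Of the 34 genes 3 were lower; library weights gave 9, leaving out 1 library 0 to 12. Without controls 1 and 3, 342 genes were called and Grem1 had -2.36 (limma adjusted p = 0.0903). Of the 34 genes 28 were tested there and 0 called, with Ms4a6d, Mrc1 and Nos2 among those that failed the filter. Without cKO replicates 2 and 5, libraries chosen from their levels in these data, 3162 were called and 23 of the 34 were lower. With libraries under 60 M reads alone (1 cKO library, assumed to vary like the controls), 2 were called, 0 of the 34, and Grem1 had -3.16 (0.129). The cause of these shifts was not tested, beyond the smaller numbers of libraries and of genes passing the filter. No alternative called any of the 34 genes higher. Of all genes, 3.26% were called higher with edgeR, 10.2% with DESeq2, 14.1% with library weights and 1.63% without cKO replicate 4.

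Replicate numbers did not pair the libraries: same-numbered deviations correlated at 0.0705, 0.0171, -0.00621 and -0.0109, and 1 of 4 correlated best with its own number. A replicate block called 2715 genes and 4 of the 34 lower (with Cd14).

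Log2 fold changes changed sign with edgeR for Cd53 (0.0034), Cd52 (0.45), Cd163 (0.019), Clec4n (0.73), Fcgr3 (0.028), Tyrobp (0.10), Ms4a6b (0.43) and Lst1 (0.023). With DESeq2 they did for Cd53 (0.026), Cd52 (0.47), Cd163 (0.033), Clec4n (0.74), Fcgr3 (0.051), Fcer1g (0.018), Tyrobp (0.12), Ms4a6b (0.45) and Lst1 (0.047). Fcgr1 had -0.21 with library weights. Without controls 1 and 3 Cd163 had 0.24, Fcgr1 -0.76 and Cd74 0.31. Under 60 M reads Cd163 had 0.16, Clec4n 2.82 and Ms4a6b 0.057. Leaving out 1 library gave Cd163 -0.52 to 0.14 and Arg1 -0.71 to 1.64. None of these was called. Below about 3 reads per library a gene cannot be told from absent, which bears on Ms4a6d, Mrc1, Ms4a7 and the C1q genes.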

Other observations

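Other cell types were read at levels that also differed between libraries. Of 8 cartilage genes, a list chosen after seeing the data, 4 were lower with limma (3 without cKO replicate 2), 1 with edgeR and 6 with DESeq2; their sums were 159215 to 1180230.0 in cKO libraries, 1889030.0 to 4445760.0 in controls, and cKO replicate 5 was the highest cKO library, as it was for Nos2. The 8 B and plasma cell genes summed to 14879.9 normalized counts in cKO replicate 2, 539.7 to 2923 in the other cKO libraries and 2476 to 5452 in controls; limma, edgeR and DESeq2 called 0 of 7 tested, and 0 had an unadjusted p under 0.05. Kit, expressed by mast cells and progenitors, was 3.09-fold lower (934 ± 359 in cKO libraries and 3068 ± 1608 in controls; SD, n = 5 and 4; limma adjusted p = 0.0288; edgeR 0.0334), a limma call kept in 3 of 9 fits with 1 library left out and lost without cKO replicate 2 (0.0599), while the mast cell proteases Mcpt4, Cma1 and Tpsb2 were at 0 in all 9 libraries.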
